A study of Caenorhabditis elegans with 12 samples.

Results

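The 34 genes described here encode the proteins that license, copy and divide the chromosomes of the nematode Caenorhabditis elegans. They were taken from a list of symbols, with pcn-1 as its marker gene, and matched by symbol to WormBase gene IDs. The list was chosen with earlier results of these data known. The list holds 7 genes of origin recognition and helicase loading, 6 MCM helicase genes, 8 genes of the replication fork, 8 cyclin and cyclin-dependent kinase (CDK) genes and 5 genes of mitotic kinases and regulators. All 34 were found among the 46726 gene IDs of the count table, and all 34 passed the filter on low counts that left 16764 genes for testing.

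The study profiled poly(A) RNA of whole adults of 2 genotypes at 2 ages, with 3 libraries in each of 4 groups. The groups were mutants carrying the n4115 allele of the microRNA gene mir-71 (strain MT12993) at day 5 and at day 0 of adulthood, and the wild-type strain N2 at day 5 and at day 0. Every group was kept at 20 °C and was placed, around the molt into adulthood, on 0.1 mg/mL 5-fluorodeoxyuridine, a drug that blocks DNA synthesis. Control animals therefore carried the drug too, and the effects of age and of exposure to the drug, which grew in parallel, cannot be told apart. Mature microRNAs are not measured in poly(A) libraries, so no transcript level here checks the mir-71 allele itself.

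Replication starts when the origin recognition complex, with CDC-6 and CDT-1, loads the MCM helicase onto DNA. Cyclin-CDK complexes then fire the origins, and at the fork PCNA, its clamp loader RFC and the single-strand binding protein RPA serve the polymerases. B-type cyclins, Polo and Aurora kinases drive the later division. In adult C. elegans the somatic cells no longer divide, while germ cells at the distal end of the gonad do. Growing oocytes also store many of these transcripts for the embryo.

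Libraries held 20.5 to 65.2 M counts (M, mega), and 3 counts equalled 0.045 to 0.157 counts per M of the scaled library (CPM). Age separated the libraries on the leading principal component, with 80.8% of the variance of log2 CPM. On it 3 day 0 libraries, replicate 1 of N2 and replicates 1 and 3 of the mutants, lay nearest to the day 5 libraries. Their scores ran from -103.7 to -75.42, and those of the other day 0 libraries from -153.2 to -120.2. Some estimates below are also given without these 3. Replicate 2 of N2 had the lowest level of its group for 32 of the 34 genes at day 5 and for 31 at day 0. The series' design text calls the 3 libraries of a group biological replicates, without saying whether they were separate cultures, and p-values measure the spread between these libraries.

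Levels set between genes are in RPKM, CPM per kilobase of summed exon length. In mir-71 mutants at day 5 they ran from 11.1 RPKM for cdk-2 to 513 RPKM for pcn-1, with a median of 94.4. In mutants at day 0 the ends were cdk-2 at 8.44 RPKM and cyb-3 at 257 RPKM, with a median of 56.8. In N2 at day 5 cdk-2 had 14.8 RPKM and cyb-3 had 536 RPKM, with a median of 121, and pcn-1 stood just below at 523 RPKM. In N2 at day 0 the values were 8.94 RPKM for cdk-2 and 289 RPKM for cyb-3, with a median of 62.1. The kinase gene cdk-2 was thus the lowest in all 4 groups, and the cyclin B3 gene cyb-3 the highest in 3 of them.

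**Figure D1:**
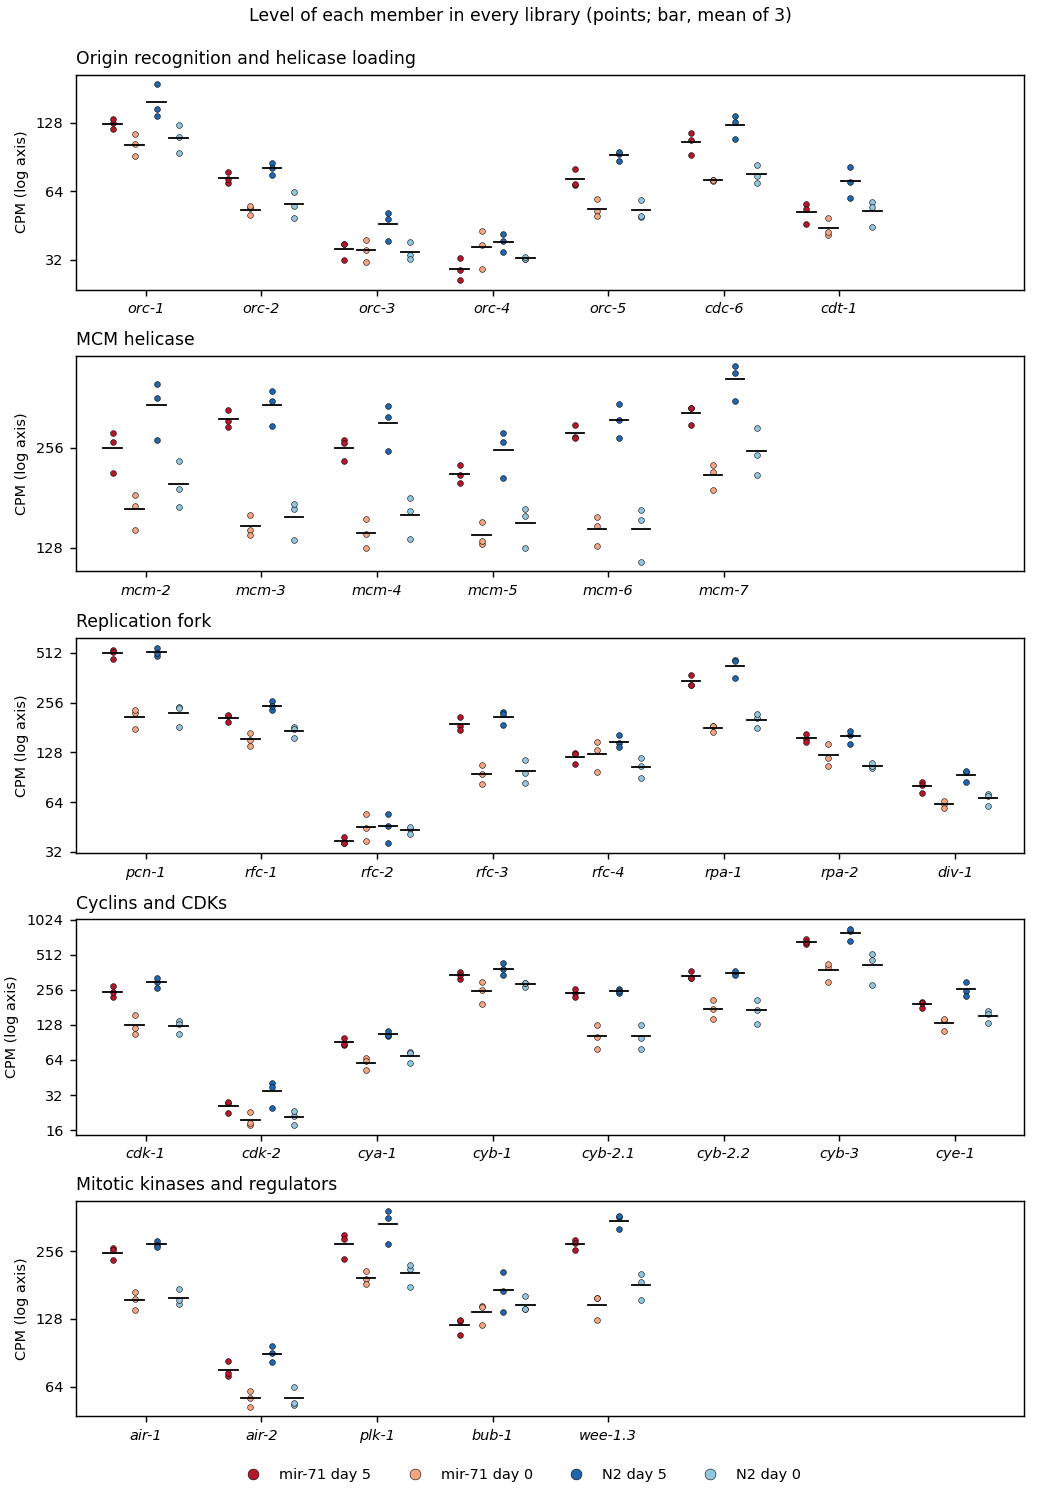
Level of each of the 34 genes in CPM (log2-spaced axis) in every library, by role. Points are libraries, coloured by genotype and age as in the key, and bars are means of 3. For pcn-1 the 6 day 5 libraries lie between 470 and 550 CPM and the 6 day 0 libraries between 178 and 242 CPM.

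With age, transcripts of most of these genes were higher in both genotypes, by up to 2.46-fold. In mutants 26 of the 34 rose and none fell, where 24.9% of all tested genes rose and 27.4% fell. In N2 31 of the 34 rose and none fell, where 23.8% of all tested genes rose and 28.2% fell (edgeR quasi-likelihood test, Benjamini-Hochberg adjusted p under 0.05). The median log2 fold change of the 34 was 0.55 in mutants, beside 0.01 over all tested genes, and 0.73 in N2, beside -0.09. In mutants 27 of the 34 were higher in every day 5 library than in every day 0 library, against 29.1% of all tested genes. In N2 this held for 32 of the 34, against 28.6% of all tested genes. As the list was chosen with earlier results of these data known, these shares are a description and no test of the 34 as a set. In whole animals, a change in the number of cells of a type and a change in RNA per cell cannot be told apart. Leaving out the 3 day 0 libraries named above keeps only replicate 2 of the mutants at day 0. Nothing is therefore read from the count of calls in that fit. The estimates of that fit were positive for 31 of the 34 genes in mutants and for 34 in N2. In the main fit these counts were 30 and 34.

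The 26 genes that rose in mutants all rose in N2 as well. The 5 called in N2 alone were orc-1, orc-3, cdt-1, rfc-4 and cdk-2, and the 3 called in neither were orc-4, rfc-2 and bub-1. That split does not show a difference between genotypes, since the test of the difference itself, given further on, called none of the 34.

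The genes of origin recognition and loading had the smallest median change of the 5 roles in both genotypes. In mutants 3 of 7 rose, with a median log2 fold change of 0.30, and in N2 6 of 7 rose, with a median of 0.52. orc-5, an origin recognition subunit, had 68.1, 80.1 and 69.2 CPM in mutants at day 5 against 59, 52.4 and 49.8 CPM in mutants at day 0. Its log2 fold change there was 0.43 ± 0.12 (SE, n = 3 per group throughout; edgeR adjusted p = 0.00821). In N2 it had 93.7, 87.1 and 95.6 CPM at day 5 against 58.6, 49.6 and 50 CPM at day 0, a change of 0.80 ± 0.12 (edgeR adjusted p = 0.000129). The ages did not overlap for orc-5 in either genotype. cdc-6 and orc-2 also rose in both genotypes, cdc-6 by 0.55 ± 0.12 in mutants and 0.72 ± 0.12 in N2, and orc-2 by 0.46 ± 0.12 and 0.53 ± 0.12 in that order. Without replicate 3 of the mutants at day 0 the call of orc-5 in mutants was lost (0.31, edgeR adjusted p = 0.0987).

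The other 4 loading genes did not pass in mutants. orc-1, the large origin recognition subunit, had 120, 128 and 133 CPM in mutants at day 5 against 114, 91.2 and 103 CPM at day 0. In N2 it had 147, 137 and 189 CPM at day 5 against 125, 94 and 111 CPM at day 0. The ages were thus apart in both genotypes, with a change of 0.30 ± 0.15 in mutants (edgeR adjusted p = 0.1) and 0.52 ± 0.15 in N2 (edgeR adjusted p = 0.00996). orc-3 had 31.9, 37.7 and 37.5 CPM in mutants at day 5 against 35.2, 31.2 and 39.2 CPM at day 0. In N2 the orc-3 levels were 48.6, 38.6 and 51.2 CPM at day 5 against 33.6, 32.4 and 38.4 CPM at day 0. The ages overlapped in mutants, with a change of 0.02 ± 0.15, and were narrowly apart in N2, with a change of 0.41 ± 0.15 (edgeR adjusted p = 0.035).

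cdt-1, which helps load the helicase and is destroyed after origins fire, had 45.8, 56.1 and 53.7 CPM in mutants at day 5 against 41, 42.5 and 48.7 CPM at day 0. N2 had 70.1, 60.1 and 82 CPM of cdt-1 at day 5 against 57.5, 44.7 and 54.7 CPM at day 0. Its change was 0.24 ± 0.15 in mutants, where the ages overlapped, and 0.44 ± 0.15 in N2 (edgeR adjusted p = 0.0267), where they did not. orc-4 had 26.1, 32.5 and 28.9 CPM in mutants at day 5 against 42.8, 29.3 and 37.2 CPM at day 0. In N2 orc-4 had 38.8, 34.8 and 41.5 CPM at day 5 against 32.2, 32.3 and 32.9 CPM at day 0. Its estimates had opposite signs, -0.32 ± 0.15 in mutants and 0.24 ± 0.15 in N2, and neither passed (edgeR adjusted p = 0.0978 and 0.209). Without replicate 2 of the mutants at day 0 the mutant value was -0.45 and passed as a fall (edgeR adjusted p = 0.0209), and with upper-quartile factors it was -0.38 (edgeR adjusted p = 0.0443).

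In N2, leaving out single libraries ended the calls of 3 loading genes. Without replicate 3 at day 5, orc-1 changed by 0.37 (edgeR adjusted p = 0.0521), orc-3 by 0.32 (edgeR adjusted p = 0.123) and cdt-1 by 0.32 (edgeR adjusted p = 0.118). orc-3 also lost its call without N2 replicate 1 at day 5 (0.37) or at day 0 (0.38), without N2 replicate 2 at day 0 (0.36), and without mutant replicate 3 at day 0 (0.39, edgeR adjusted p = 0.0511). cdt-1 also lost it without N2 replicate 1 at day 5 (0.44, edgeR adjusted p = 0.0595) and without N2 replicate 2 at day 0 (0.33, edgeR adjusted p = 0.111).

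The MCM helicase genes rose together: all 6 passed in each genotype. Their products form the ring that unwinds DNA. The median log2 fold change was 0.74 in mutants and 0.85 in N2. mcm-3, with the largest change of the 6, had 297, 333 and 309 CPM in mutants at day 5 against 145, 140 and 160 CPM at day 0, a change of 1.08 ± 0.13 (edgeR adjusted p = 3.21e-05). In N2 it had 356, 299 and 381 CPM at day 5 against 167, 135 and 173 CPM at day 0, a change of 1.12 ± 0.13 (edgeR adjusted p = 2.68e-05). Every day 5 library held more mcm-3 than any day 0 library. mcm-2 had 215, 267 and 285 CPM in mutants at day 5 against 145, 171 and 185 CPM at day 0, a change of 0.61 ± 0.18 (edgeR adjusted p = 0.0107). In N2 mcm-2 had 362, 271 and 400 CPM at day 5 against 193, 170 and 234 CPM at day 0, a change of 0.79 ± 0.18 (edgeR adjusted p = 0.00237). Ages were apart for each of the 6 genes in each genotype. The mutant call of mcm-2 was lost without replicate 1 of the mutants at day 0 (0.48, edgeR adjusted p = 0.053). The other changes in mutants and in N2 were 0.86 and 0.92 for mcm-4, 0.61 and 0.74 for mcm-5, 0.97 and 1.09 for mcm-6, and 0.62 and 0.72 for mcm-7.

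At the fork 6 of 8 genes rose in mutants (median log2 fold change 0.40) and 7 of 8 in N2 (median 0.55). pcn-1 encodes PCNA, the sliding clamp that holds polymerases on DNA. It had 535, 519 and 470 CPM in mutants at day 5 against 221, 178 and 232 CPM at day 0, 2.42-fold higher (log2 1.27 ± 0.14, edgeR adjusted p = 1.85e-05). In N2 it had 550, 492 and 513 CPM at day 5 against 242, 182 and 236 CPM at day 0, 2.35-fold higher (log2 1.24 ± 0.14, edgeR adjusted p = 2.48e-05). The ages stood far apart in both genotypes, and the genotypes overlapped at each age. rpa-1, which encodes the large RPA subunit, rose by 0.93 ± 0.13 in mutants and 1.08 ± 0.13 in N2. The small subunit gene rpa-2 rose by 0.35 ± 0.12 and 0.59 ± 0.12, and div-1, a subunit of the polymerase alpha-primase that starts new strands, by 0.36 ± 0.11 and 0.48 ± 0.11.

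The clamp loader genes did not move alike. rfc-3 rose by 1.00 ± 0.15 in mutants and 1.09 ± 0.15 in N2, and the large subunit gene rfc-1 by 0.43 ± 0.11 and 0.52 ± 0.11. rfc-4 had 126, 125 and 109 CPM in mutants at day 5 against 148, 96.8 and 132 CPM at day 0. In N2 rfc-4 had 146, 137 and 163 CPM at day 5 against 119.3, 90.2 and 106.2 CPM at day 0. Its ages overlapped in mutants (-0.07 ± 0.16, edgeR adjusted p = 0.745) and were apart in N2 (0.50 ± 0.16, edgeR adjusted p = 0.0188). rfc-2 had 36.3, 39.4 and 36.5 CPM in mutants at day 5 against 54, 37.2 and 44.8 CPM at day 0, a change of -0.28 ± 0.17 (edgeR adjusted p = 0.183). N2 had 46.2, 36.1 and 54.6 CPM of rfc-2 at day 5 against 44.1, 41.1 and 45.4 CPM at day 0, a change of 0.06 ± 0.17 (edgeR adjusted p = 0.764). The ages overlapped for rfc-2 in both genotypes.

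Leaving out single libraries ended 3 calls at the fork. In N2 rfc-4 lost its call without replicate 3 at day 5 (0.43, edgeR adjusted p = 0.07) or replicate 2 at day 0 (0.40, edgeR adjusted p = 0.0791). In mutants rpa-2 and div-1 each lost theirs without any of 5 libraries. For rpa-2 these were mutant replicates 1 (0.35) and 2 (0.30) at day 5, mutant replicates 2 (0.25) and 3 (0.24) at day 0, and N2 replicate 2 at day 5 (0.28). For div-1 they were mutant replicates 2 (0.31) and 3 (0.35) at day 5 and mutant replicates 1 (0.32), 2 (0.33) and 3 (0.32) at day 0.

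Among cyclins and CDKs 7 of 8 rose in mutants (median log2 fold change 0.71) and 8 of 8 in N2 (median 0.83). cdk-1, the kinase that drives entry into mitosis and meiotic divisions, had 224, 275 and 245 CPM in mutants at day 5 against 156, 108 and 120 CPM at day 0. N2 had 301, 265 and 327 CPM of cdk-1 at day 5 against 138, 108 and 130 CPM at day 0. Ages were apart in both, and the change was 0.96 ± 0.16 in mutants (edgeR adjusted p = 0.000277) and 1.25 ± 0.16 in N2 (edgeR adjusted p = 4.5e-05). The B-type cyclin gene cyb-2.1 had the largest change of the 34 in N2, 2.46-fold (log2 1.299 ± 0.19), and rose by 1.22 ± 0.19 in mutants. Its paralog cyb-2.2 rose by 0.95 ± 0.17 in mutants and 1.07 ± 0.17 in N2, and cyb-3 by 0.82 ± 0.21 and 0.89 ± 0.21. cyb-2.1 and cyb-2.2 are close paralogs, so reads could have been split between them and their single values are uncertain. The cyclin A gene cya-1 rose by 0.60 ± 0.13 in mutants and 0.62 ± 0.13 in N2, and the cyclin E gene cye-1, whose product acts in S phase entry, by 0.54 ± 0.14 and 0.76 ± 0.14.

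cyb-1, the cyclin B1 gene, had the largest p of this role in N2. It had 315, 366 and 341 CPM in mutants at day 5 against 193, 298 and 254 CPM at day 0, a change of 0.46 ± 0.15 (edgeR adjusted p = 0.0234). In N2 cyb-1 had 390, 345 and 433 CPM at day 5 against 272, 292 and 295 CPM at day 0, a change of 0.44 ± 0.15 (edgeR adjusted p = 0.0274). The mutant day 0 libraries of cyb-1 were spread more widely than those of N2, and ages did not overlap in either genotype. cyb-1 lost its N2 call without any one of 5 N2 libraries: replicates 1 (0.44) and 3 (0.36) at day 5, and replicates 1 (0.41), 2 (0.46) and 3 (0.47) at day 0. In mutants cyb-1 lost it without replicates 2 (0.40) or 3 (0.46) at day 5, or replicates 1 (0.26) or 3 (0.42) at day 0. cdk-2, the partner of cyclin E, had 22.5, 27.5 and 27.8 CPM in mutants at day 5 against 17.7, 18.3 and 22.9 CPM at day 0. In N2 cdk-2 had 40.7, 24.9 and 37.5 CPM at day 5 against 21.2, 17.7 and 23.5 CPM at day 0. The mutant ages overlapped narrowly (0.40 ± 0.20, edgeR adjusted p = 0.108) and the N2 ages were apart (0.72 ± 0.20, edgeR adjusted p = 0.00891).

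Of the mitotic kinases and regulators 4 of 5 rose in each genotype, with median log2 fold changes of 0.50 in mutants and 0.73 in N2. wee-1.3, a kinase gene whose product holds CDK-1 inactive in oocytes, had 258, 288 and 277 CPM in mutants at day 5 against 127, 158 and 158 CPM at day 0. N2 had 361, 322 and 366 CPM of wee-1.3 at day 5 against 203, 155 and 187 CPM at day 0. Ages were well apart, with a change of 0.89 ± 0.13 in mutants (edgeR adjusted p = 0.000126) and 0.94 ± 0.13 in N2 (edgeR adjusted p = 8.85e-05). air-1 (Aurora A) rose by 0.70 ± 0.11 in mutants and 0.78 ± 0.11 in N2, air-2 (Aurora B) by 0.42 ± 0.12 and 0.66 ± 0.12, and plk-1 (Polo-like kinase) by 0.50 ± 0.15 and 0.73 ± 0.15. In mutants air-2 lost its call without replicate 2 at day 5 (0.35, edgeR adjusted p = 0.0509) or replicate 3 at day 0 (0.36, edgeR adjusted p = 0.0739), and plk-1 without replicate 2 at day 5 (0.44, edgeR adjusted p = 0.054).

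bub-1, a spindle checkpoint kinase gene, was the 1 member of this role that did not pass with age in either genotype. It had 109, 125 and 127 CPM in mutants at day 5 against 120, 146 and 145 CPM at day 0 (-0.19 ± 0.15, edgeR adjusted p = 0.312). In N2 bub-1 had 171, 137 and 207 CPM at day 5 against 141, 141 and 162 CPM at day 0 (0.21 ± 0.15, edgeR adjusted p = 0.248). The ages overlapped in both genotypes.

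**Figure D2:**
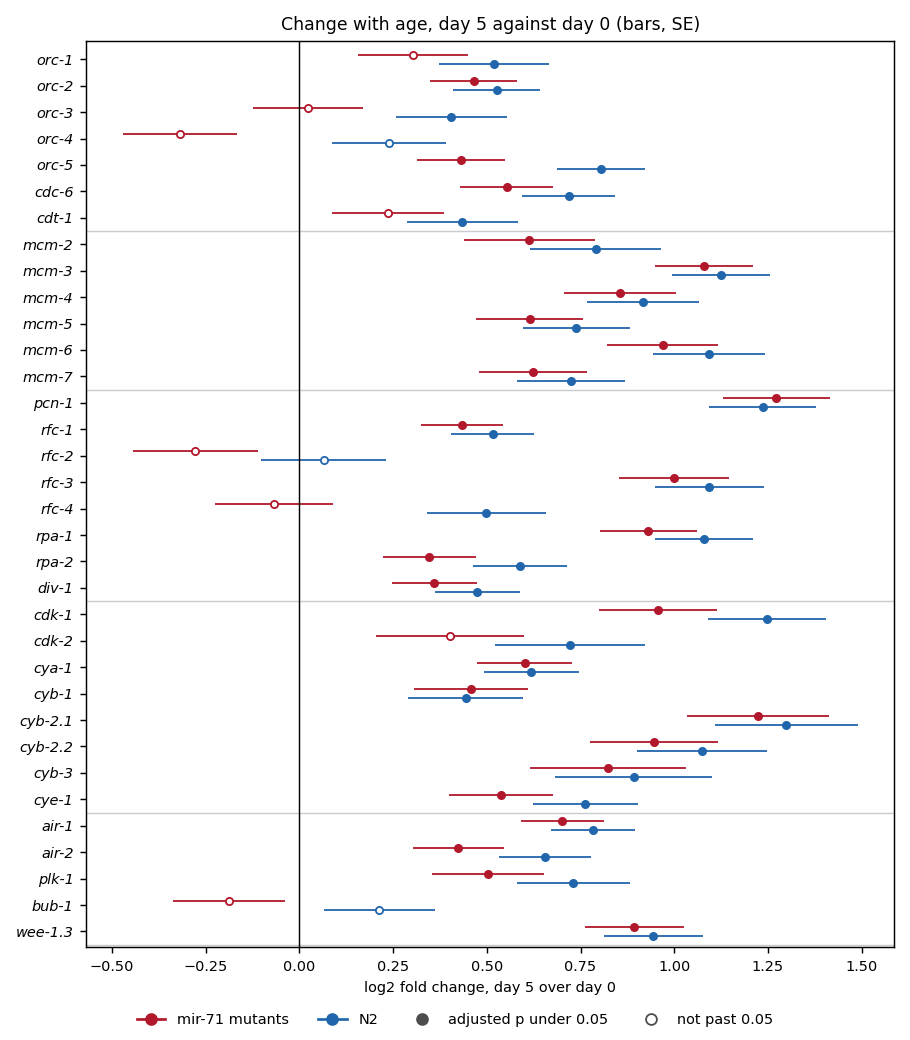
log2 fold change of day 5 over day 0 for each of the 34 genes, mir-71 mutants in red and N2 in blue, with the standard error as bars. Filled points passed an adjusted p of 0.05. All 6 mcm genes are filled in both genotypes, while orc-4, rfc-2 and bub-1 are open in both, with negative estimates in mutants.

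Between genotypes at day 0, none of the 34 genes passed the edgeR test, where 0.0716% of all tested genes were called higher in mutants and 0.0597% lower. DESeq2 also called none. At an unadjusted p under 0.05 the edgeR test held 1 gene of the 34, wee-1.3, at -0.30 ± 0.13 with an adjusted p = 0.906. Of all 16764 tested genes 755 were under it. The median log2 difference, mutants over N2, was -0.09 beside 0.00 over all tested genes, and 25 of the 34 estimates were negative, or 18 without replicate 1 of N2 at day 0 and 30 without replicate 2 of N2 or replicate 1 of the mutants at day 0. For pcn-1 the difference was -0.07, with a 95% interval of -0.37 to 0.24. The widest of these estimates were rfc-4 at 0.26 and wee-1.3 at -0.30. None of the 34 had libraries apart between genotypes. Of all 16764 tested genes 841 were higher in every mutant library and 721 lower. A block for replicate number left the day 0 count at 0, in the joint fit and in a fit of the day 0 libraries alone. Without the 3 day 0 libraries named above, 30 of the 34 estimates were negative.

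At day 5 all 34 estimates were negative, lower in mutants than in N2, except that pcn-1, rpa-2 and cyb-2.1 turned positive with upper-quartile factors, and pcn-1 or rpa-2 without 1 library. Without N2 replicate 1 at day 5 pcn-1 was positive, without N2 replicate 3 at day 5 rpa-2 was, and without mutant replicate 3 at day 5 both were. The 34 had a median log2 difference of -0.25 beside 0.05 over all tested genes. The test called 1 of them, bub-1, lower, and none higher, where 3.1% of all tested genes were called lower and 7.63% higher. In 13 of the 34 the 3 mutant libraries all lay under the 3 N2 libraries, against 16.1% of all tested genes. These were orc-1, orc-3, orc-4, orc-5, cdt-1, mcm-7, rfc-1, rfc-4, cya-1, cye-1, air-1, bub-1 and wee-1.3. The role medians were -0.35 for origin recognition and loading, -0.25 for MCM genes, -0.24 for the fork, -0.23 for cyclins and CDKs and -0.30 for mitotic genes. pcn-1 was at -0.03, with a 95% interval of -0.33 to 0.28, and rpa-2 also at -0.03.

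The bub-1 difference at day 5 was -0.51 ± 0.15, 1.43-fold lower in mutants (edgeR adjusted p = 0.0468), from the levels by library given above. That call sat near the threshold. It was lost with upper-quartile factors, with TMM factors computed without the msp, col and vit families, and without a count filter. It was also lost without any one of 8 libraries, with estimates between -0.36 (without N2 replicate 3 at day 5, edgeR adjusted p = 0.207) and -0.55 (without mutant replicate 3 at day 5). The other 6 were mutant replicates 1 (-0.44) and 2 (-0.54) and N2 replicate 1 (-0.52) at day 5, and N2 replicates 1 (-0.51), 2 (-0.51) and 3 (-0.51) at day 0.

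Other genes at day 5 stood near the threshold from the other side. cye-1 differed by -0.43 ± 0.14 (edgeR adjusted p = 0.0638), cdt-1 by -0.45 ± 0.15 (edgeR adjusted p = 0.0718) and orc-5 by -0.35 ± 0.12 (edgeR adjusted p = 0.0758). DESeq2 called 7 of the 34 lower, orc-4, orc-5, cdt-1, rfc-1, cye-1, bub-1 and wee-1.3. It called 1428 of all 16764 tested genes lower, where the main edgeR fit called 519. Without replicate 2 of N2 at day 5, the edgeR test called 5, bub-1 with cdt-1 (-0.56), mcm-2 (-0.59), rpa-1 (-0.43) and cye-1 (-0.53). There it called 784 of all tested genes lower. Without the 3 day 0 libraries named further above, all 34 estimates stayed negative. Without replicate 1 of the mutants at day 0 the edgeR test called 3, bub-1 with orc-5 (-0.36) and cye-1 (-0.45). In that fit 874 of all tested genes were called lower.

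**Figure D3:**
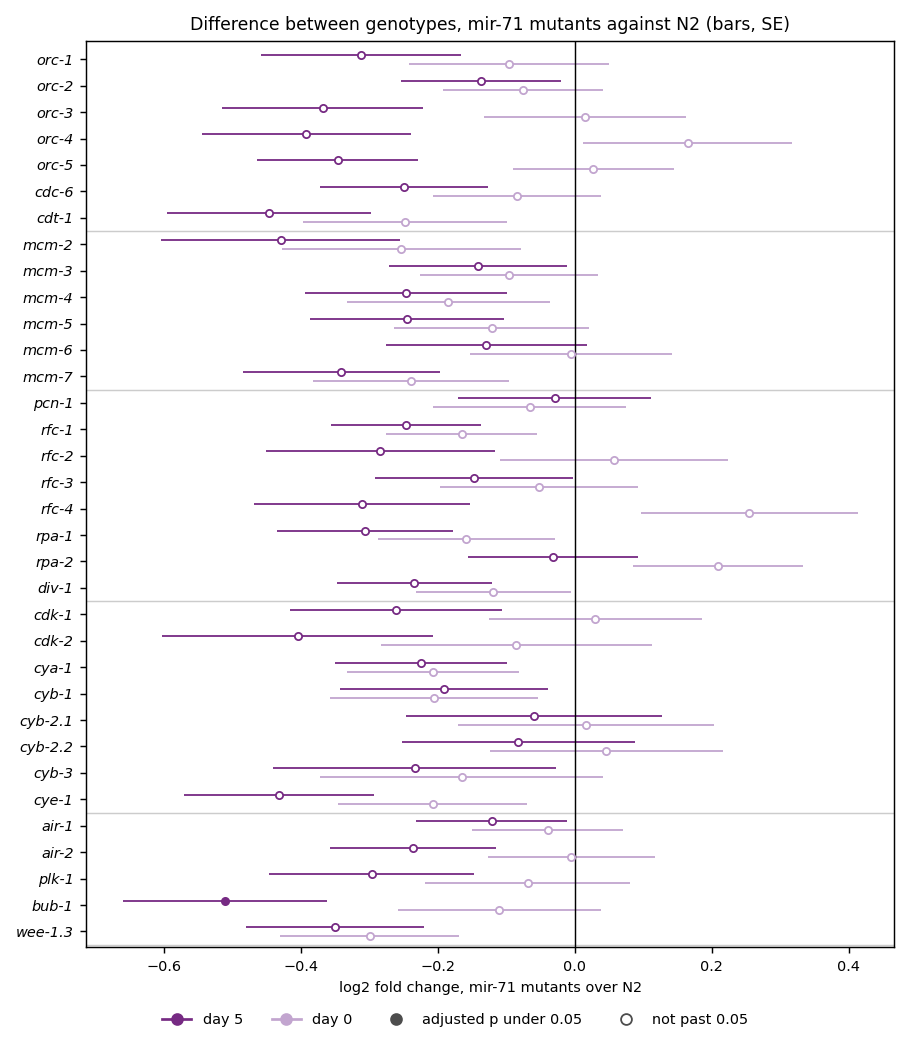
log2 difference of mir-71 mutants over N2 for each of the 34 genes, at day 5 (dark) and at day 0 (light), with the standard error as bars. All 34 day 5 points lie below 0 (pcn-1, rpa-2 and cyb-2.1 above it with upper-quartile factors, pcn-1 and rpa-2 also without 1 library), and the 1 filled point, past an adjusted p of 0.05, is bub-1 at day 5.

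The change with age in mutants minus that in N2 passed the edgeR test for none of the 34 genes, where 0.453% of all tested genes were called higher and 0.101% lower. DESeq2 also called none of them. At an unadjusted p under 0.05 there were 3 of the 34, where 2391 of all 16764 tested genes were under it. They were rfc-4 at -0.57 ± 0.22, orc-4 at -0.56 ± 0.22 and orc-5 at -0.37 ± 0.17. The smallest edgeR adjusted p of the 34 was 0.276. The median was -0.14 beside 0.06 over all tested genes, and 32 of the 34 were negative, or 25 with upper-quartile factors and 21 without replicate 2 of N2 at day 0. For pcn-1 the difference was 0.04, with a 95% interval of -0.40 to 0.47. Intervals of this width leave room for moderate differences in either direction.

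Genes of the same processes outside the 34 were also followed. Of 34 other replication genes (of 37 listed), 18 rose and 1 fell in mutants, and 24 rose and none fell in N2, with median log2 fold changes of 0.41 and 0.71 in that order. tyms-1 encodes thymidylate synthase, the enzyme that 5-fluorodeoxyuridine is known to inhibit. It had the smallest p of that list and rose by 2.00 ± 0.24 in mutants (edgeR adjusted p = 2.59e-05) and 2.43 ± 0.24 in N2 (edgeR adjusted p = 8.75e-06). polh-1, a translesion polymerase gene, rose by 0.79 in mutants and 1.00 in N2. crn-1, a flap nuclease gene, rose by 1.03 in mutants, and lig-1, a DNA ligase gene, by 0.99 in N2. The 1 gene of that list that fell was clsp-1, a fork protection gene, at -0.34 in mutants.

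At day 0 the edgeR test called none of these other replication genes between genotypes, and none had an unadjusted p under 0.05. At day 5, 33 of their 34 estimates were negative, with a median of -0.29, and 4 genes passed as lower in mutants and none as higher. They included pri-1, a primase subunit gene (-0.48), dscc-1, a gene of the cohesion-linked clamp loader (-0.54), and rnh-2, an RNase H gene (-0.49).

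Of 72 other cell cycle genes (of 73 listed), 26 rose and 8 fell in mutants, and 40 rose and 7 fell in N2, with medians of 0.27 and 0.45 in that order. The centriole gene sas-5 rose by 1.18 in mutants and 1.13 in N2, and the kinetochore gene ndc-80 by 0.82 and 0.91. The phosphatase gene cdc-14 rose by 0.75 in mutants and 0.66 in N2, and the centromeric histone gene hcp-3 by 0.49 and 0.85. Among those that fell, cdc-25.4, a CDC25 phosphatase gene, changed by -5.59 in mutants and -5.49 in N2, and hcp-6, a condensin gene, by -1.03 and -0.68. apc-2, a gene of the anaphase-promoting complex, changed by -1.12 in mutants and -0.42 in N2. emb-30, another of its subunits, changed by -0.38 in mutants and -0.55 in N2. At day 0 none of them was called by edgeR or had an unadjusted p under 0.05. At day 5, 67 of the 72 estimates were negative, and 6 genes of that list passed as lower in mutants and 1 as higher. The higher one was cki-1, which encodes an inhibitor of CDKs, at 1.45 ± 0.28 (edgeR adjusted p = 0.00811). Among the lower ones were apc-2 (-0.67), the centriole gene sas-6 (-0.53) and hcp-6 (-0.56). No gene of either list passed the edgeR test of the difference between the changes with age. There 5 of the 34 other replication genes and 6 of the 72 other cell cycle genes had an unadjusted p under 0.05. Over all 16764 tested genes 2391 did.

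The summed level of the 34 genes was 6569.8 to 7360.2 CPM in mutants at day 5 and 4047 to 4486 CPM in mutants at day 0. In N2 it was 7186 to 8782 CPM at day 5 and 3946 to 4956 CPM at day 0. Ages were apart in both genotypes, and the genotypes overlapped at each age.

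Germline markers shifted over the same libraries. The 18 oocyte markers summed to 15370 to 17750 CPM in mutants at day 5 and 5967 to 7444 CPM at day 0. In N2 they summed to 15800 to 19780 CPM at day 5 and 6032 to 8683 CPM at day 0. In each genotype 17 of the 18 rose, with median log2 fold changes of 1.08 in mutants and 1.15 in N2. The 21 germ cell markers, of mitotic and meiotic cells and germ granules, summed to 2588 to 3229 CPM in mutants at day 5 and 2890 to 3389 CPM at day 0. In N2 they summed to 3274 to 4532 CPM at day 5 and 3139 to 3966 CPM at day 0. Here the ages overlapped in both genotypes: 4 markers rose and 9 fell in mutants, and 8 rose and 5 fell in N2. At day 5 all 21 germ cell markers had negative estimates in mutants against N2, with a median of -0.39, and 3 passed, fbf-1, rec-8 and fbf-2. Of the 18 oocyte markers 17 had negative estimates there, with a median of -0.16, and none passed.

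The 22 sperm markers summed to 54.6 to 65.9 CPM in mutants at day 5 and 650.1 to 1816 CPM at day 0. In N2 they summed to 46.1 to 55.2 CPM at day 5 and 809 to 1922 CPM at day 0, and 20 of the 22 fell in each genotype. Between genotypes at day 5, 18 of the 22 had positive estimates in mutants against N2, and none passed. The 13 early embryo markers summed to 8.21 to 9.53 CPM in mutants at day 5 and 6.47 to 11.2 CPM at day 0. In N2 that sum was 9.17 to 9.80 CPM at day 5 and 6.67 to 9.93 CPM at day 0. Only 6 of them passed the filter on low counts, and 3 rose in mutants and 4 in N2. Of these markers med-1 and tbx-32 had no count in mutants at day 0, med-2 none in N2 at day 5, and med-2 and tbx-32 none in N2 at day 0. No oocyte, germ cell or sperm marker was at 0 in all libraries of a group. N2 replicate 2, in which most of the 34 genes were lowest of 3, also had the lowest oocyte and germ cell sums of its group at both ages. The part of germline composition in the changes of the 34 genes was not tested.

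Somatic markers were mixed. The 8 body wall muscle markers summed to 2477 to 2756 CPM in mutants at day 5 and 6555 to 13810 CPM at day 0. In N2 they summed to 1370 to 1585 CPM at day 5 and 8660 to 15240 CPM at day 0. In each genotype 7 of the 8 fell. At day 5 all 8 were higher in every mutant library than in any N2 library, with a median log2 difference of 0.82, and 3 passed. The 8 neuron markers summed to 586 to 672 CPM in mutants at day 5 and 339 to 410.3 CPM at day 0. In N2 they summed to 436 to 542 CPM at day 5 and 377 to 389.6 CPM at day 0, so that this sum, like that of the 34 genes, was higher in every day 5 library of each genotype. With age 3 of these 8 rose and none fell in mutants, and 1 rose and 2 fell in N2. All 8 neuron markers had positive estimates in mutants against N2 at day 5, with a median of 0.43, and 2 passed. Of 9 intestine markers 3 rose and 1 fell in mutants, and 4 rose and 3 fell in N2. Of 8 epidermis markers 1 rose and 4 fell in mutants, and 2 rose and 3 fell in N2. Of 7 somatic gonad and spermatheca markers 1 rose and 2 fell in mutants, and 1 rose and 3 fell in N2. Day 5 estimates in mutants against N2 were positive for 7 of 9 intestine, 4 of 8 epidermis and 4 of 7 somatic gonad and spermatheca markers. CPM are shares of a library total scaled by TMM factors. A lower share of one tissue can raise the others where the scaling does not offset it. The part of this in the changes of the 34 genes was not tested.

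**Figure D4:**
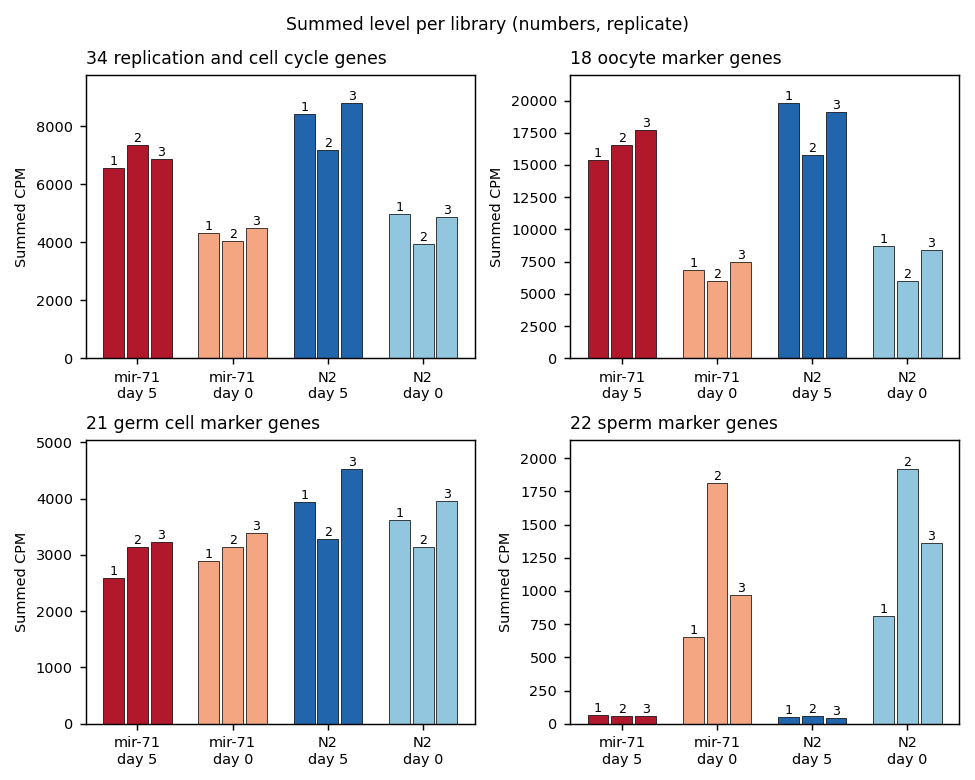
Summed CPM per library of the 34 genes, 18 oocyte markers, 21 germ cell markers and 22 sperm markers, in each group, with replicate numbers over the bars. The 34-gene and oocyte sums are higher in every day 5 library than in any day 0 library, and the germ cell sums overlap between ages in each genotype.

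Within families some proportions also shifted with age. These ratios were chosen after their values were seen and are given as a description, and 3 libraries against 3 cannot go below p = 0.10 in an exact two-sided permutation test. Relative to the median RPKM of the 6 mcm genes, mcm-5 stood at 0.848 ± 0.008 in mutants at day 5 and 1.02 ± 0.014 in mutants at day 0 (SD, n = 3). In N2 it stood at 0.851 in each library at day 5 and 1.01 ± 0.0051 at day 0. mcm-3 stood at 1.12 ± 0.012 in mutants at day 5 and 0.979 ± 0.015 at day 0, and in N2 at 1.05 ± 0.045 and 0.949 ± 0.015 for the same ages. So mcm-5 was lower and mcm-3 higher relative to the other helicase genes in every day 5 library than in any day 0 library of its genotype. mcm-7 stayed the highest of the 6 at 1.28 ± 0.043 in mutants at day 5 and 1.54 ± 0.1 at day 0, and in N2 at 1.38 ± 0.051 and 1.64 ± 0.1. mcm-2 stood at 0.868 ± 0.098 in mutants at day 5 and 1.05 ± 0.088 at day 0, and in N2 at 0.988 ± 0.038 and 1.13 ± 0.075.

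Of the summed RPKM of the 4 B-type cyclin genes, cyb-1 took 18.3% ± 0.59 in mutants at day 5 and 24.2% ± 7.2 at day 0. In N2 its share was 18.6% ± 0.71 at day 5 and 26.2% ± 6.1 at day 0. The share of cyb-2.1 was 17.2% ± 0.86 in mutants at day 5 and 13.1% ± 2.4 at day 0, and in N2 16.1% ± 1 at day 5 and 12% ± 0.95 at day 0. For cyb-2.2 it was 23.1% ± 0.39 in mutants at day 5 and 21.3% ± 2.5 at day 0, and in N2 21.9% ± 1.2 and 19.1% ± 0.95. cyb-3 held 41.4% to 43.3% in the 4 group means. For cyb-1 the shares differed more among day 0 libraries, at 17.6% to 31.9% in mutants and 20.8% to 32.8% in N2, than among day 5 libraries, at 17.7% to 18.9% in mutants and 18.2% to 19.5% in N2. The ages thus overlapped for the cyb-1 share in mutants and not in N2.

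**Figure D5:**
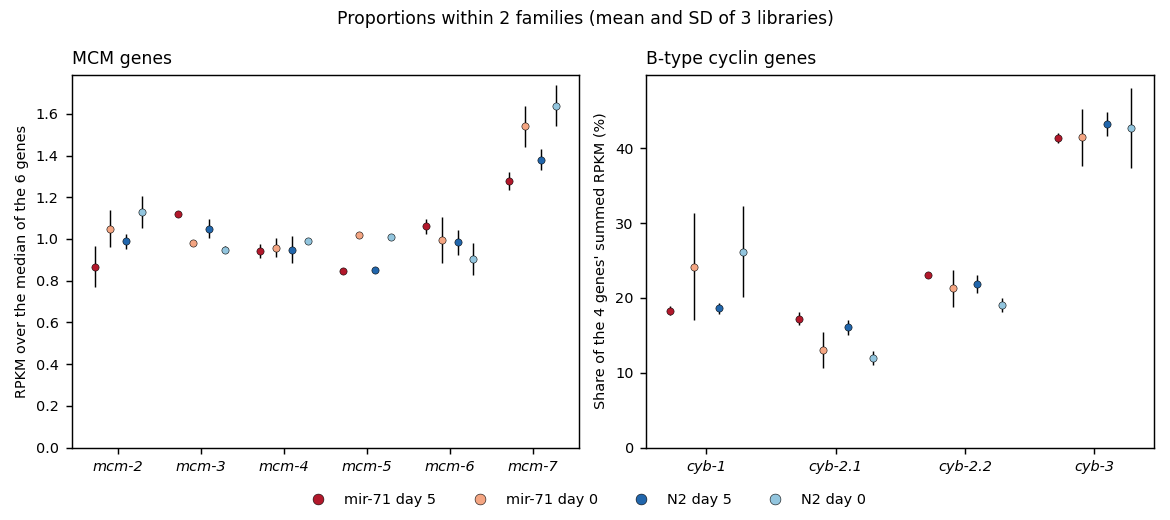
Left, RPKM of each mcm gene over the median of the 6 in each library; right, share of each gene in the summed RPKM of the 4 B-type cyclin genes. Points are means and bars SD of 3 libraries per group, on linear axes from 0. The day 5 points of mcm-5 lie at about 0.85 in both genotypes and its day 0 points at about 1.0.

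On the WBcel235 genome the 34 genes lie on the autosomes, 9 on chromosome I, 4 on II, 10 on III, 6 on IV and 5 on V. None lies on X, which holds 13.8% of the annotated genes with at least 100 counts over the 12 libraries. orc-1 (WBGene00012650; III, 10643129 to 10646058) and orc-4 (WBGene00012651; III, 10646170 to 10648861) follow each other on the plus strand with 111 bases between them. Their changes with age were 0.30 and -0.32 in mutants and 0.52 and 0.24 in N2, in that order, and the difference between the 2 genes was not tested. orc-5 (WBGene00013857; IV, 10732832 to 10734588) and cyb-1 (WBGene00000865; IV, 10735216 to 10737177) point away from each other, 627 bases apart. pcn-1 (WBGene00003955) lies on IV, 4047937 to 4049448, and bub-1 (WBGene00000275) on I, 7251941 to 7255223. Exons of 10 of the 34 genes overlap another annotated gene, 1 of them on the same strand, cdk-2, which shares 100 bases with K03E5.9. Library strand is not stated in the sources used, so the counts of those 10 are uncertain by the reads of the shared bases. K03E5.9 had 2272 counts and cdk-2 had 12063 over the 12 libraries.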

How the data were processed

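The authors deposited a table of read counts per gene and library (whole numbers, not scaled), used for the main tests, and a table of log2 values, named rlog (regularized log2) per the file headers, used as an alternative. Per the submitters' processing notes, the genome build was WBcel235 and the tools included STAR 2.4.0h and DESeq2, with no role stated. Read counter, annotation and strand: not given in the sources used here.

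All 12 libraries were fitted together with edgeR 4.0.16 in R 4.3.3: 4 group means, TMM factors (0.868 to 1.17), genes kept by filterByExpr (16764), quasi-likelihood F-test, common dispersion 0.0714, 8 residual degrees of freedom, and Benjamini-Hochberg adjustment over all genes within each contrast at a threshold of 0.05. The standard error is the absolute log2 fold change over the square root of F. CPM use the TMM-scaled totals, and RPKM divide them by summed exon length (Ensembl annotation of WBcel235). The fit was also run on simulated counts in which few genes changed. That run does not check the scaling where many genes change, as they did with age. Counting intervals do not cover the scatter between replicates, whose chi-square per gene ran from 22.8 to 308 over replicate pairs.

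The members and lists were chosen with earlier results of these data known. Levels by library are given for pcn-1, for the smallest and largest p of each role in the N2 age contrast, for members called between genotypes, and for members not called with age. Of other lists up to 3 called genes per direction are named, by smallest p, and others were chosen after their values were seen. Symbols came from a names table (43623 of 46726 IDs). The listed sperm marker ssp-9 names 2 IDs and was left out.

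Same-numbered replicates of the 2 genotypes at day 0 deviated together (r = 0.758, 0.664 and 0.285 across genes). Differently numbered ones there had r from -0.763 to 0.148. The labels state no pairing, so whether the numbers pair those libraries is not known. The replicate block changed no call at day 0. Elsewhere 1 or more same-number correlations fell below 0.1, and no pairing was assumed. Alternatives were RLE or upper-quartile factors, TMM factors without 165 msp, col and vit genes, no filter (26672 genes), at least 1 CPM in 3 libraries (13921 genes), DESeq2 1.42.0, limma 3.58.1 on the rlog values, only the groups compared, a replicate block, leaving out each library, and leaving out 3 day 0 libraries. The block in the day 0 libraries alone was chosen after seeing the data.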

Additional observations from a re-analysis of the deposited data

How the results depend on the processing

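None of the alternatives turned the direction of a called value. With age in N2, 26 to 31 of the 34 genes rose over all alternatives, and leaving out each library gave 26 to 31. With age in mutants, leaving out each library gave 21 to 26, and leaving out the 3 day 0 libraries (N2 replicate 1, mutant replicates 1 and 3) gave 17. That last setting keeps only replicate 2 of the mutants at day 0, so nothing is read from its count. Over all tested genes, leaving out each library gave 3362 to 4247 rising calls with age in N2, against 3998 in the main fit. In mutants it gave 3241 to 4213 rising calls, against 4175 in the main fit. In N2 26 of the 31 calls remained without any 1 library, and in mutants 19 of 26. Between genotypes at day 0, and for the difference between the changes with age, every count was 0. The difference has no value with only the groups compared. At day 5 the count of 1 became 3 with RLE factors, 0 with upper-quartile factors, 0 with TMM factors without the msp, col and vit families, 0 without a filter, 7 with DESeq2, 4 with limma on the rlog values and 2 with only the groups compared, and 0 to 5 when each library was left out. Over all tested genes, lower calls at day 5 numbered 519 in the main fit, 825 with RLE factors and 380 with upper-quartile factors. They numbered 464 with TMM factors without the 3 families and 340 without a filter. DESeq2 gave 1428, limma 946 and only the groups compared 723. The cause of these shifts in count was not tested. With the replicate block the counts were 31, 26, 0, 1 and 0, in the order age in N2, age in mutants, day 0, day 5 and difference. Same-number correlations were -0.0443, 0.24 and 0.123 between the ages of N2, -0.157, -0.145 and 0.112 between those of the mutants, and -0.000202, -0.0105 and 0.192 between genotypes at day 5. Upper-quartile factors moved the median of all genes with age in N2 to -0.22, against -0.09, and that of the 34 to 0.59, against 0.73. The 3 libraries per group and whole-animal RNA limit what can be told apart, and cdk-2, with the fewest counts of the 34, had 12063 over the 12 libraries.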
